A study of Saccharomyces cerevisiae with 15 samples.

Results

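Antisense RNA was examined at 905 yeast features that have a gene on the other strand overlapping them or lying within 200 bp. These were taken from 5122 features with antisense counts. The members were chosen by a mean of at least 5 antisense counts over the 15 libraries and by the position of an opposite-strand feature. Of the 3295 features that reached this mean, the other 2390 had no opposite-strand feature in reach. Levels and the count minimum are therefore given as a description. The changes between strains were not used to choose members. *MYO4*, *ARE1* and *YPD1* lay just inside the minimum with a mean of 5 antisense counts, and *SPC29*, *ARO7* and *ANT1* just outside it with 4.93.

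In stranded RNA-seq a read is assigned to the strand it came from, and antisense counts of a gene are the reads that overlap it on the opposite strand. The budding yeast genome is compact, and neighbouring genes on opposite strands either face each other with their 3′ ends (tail to tail) or start from a shared stretch (head to head). Transcripts of yeast genes run past the stop codon before they are cleaved and polyadenylated, and termination and nuclear decay keep much of the opposite-strand RNA low. Set1 is the methyltransferase and Jhd2 a demethylase of histone H3 lysine 4 (H3K4), a mark found at the starts and bodies of transcribed genes. The comparisons ask how antisense RNA and the sense RNA of the gene beside it differ when these enzymes are missing or in excess.

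Total RNA was sequenced from 5 haploid *MATa* strains, with 3 independent cultures of each: *jhd2Δ* and *set1Δ*, in which a KanMX cassette replaces the gene; a strain that expresses Flag-tagged *SET1* from the strong *ADH1* promoter (*SET1* overexpression); a strain that expresses in the same way the Flag-tagged *SET1-G990E* allele, which is described as hyperactive; and WT. All 5 lack both chromosomal *HTA-HTB* loci (*hta1-htb1Δ*, *hta2-htb2Δ*) and instead carry *HTA1-HTB1* on a centromeric *HIS3* plasmid, and all have the *lys2-128δ* and *ura3-52* alleles and a *his3* deletion. The overexpression constructs are marked with *URA3*, which WT and the deletion strains do not carry at that site. Each genotype is 1 strain, grown in rich medium (YPAD) to mid-log phase, so p-values measure the spread between cultures of a strain. In such bulk cultures, fewer cells with an RNA and less RNA per cell cannot be told apart.

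Each library held 6903094 to 8947346 sense counts but only 72664 to 106762 antisense counts, so most members were counted with limited precision. Antisense totals were 72664 to 76374 in the *set1Δ* libraries, against 94812 to 104229 in the WT libraries. Raw counts of *set1Δ* therefore run low, and every fold change below is scaled. Antisense was also low relative to sense. Per 100 sense counts of the scaled library sizes it came to 0.97 to 1.03 in *set1Δ* and 1.12 to 1.13 in *jhd2Δ*. It was 1.18 to 1.22 under *SET1* overexpression and 1.24 to 1.30 under *SET1-G990E*, against 1.18 to 1.25 in WT. Antisense fold changes are scaled within that strand, which removes such differences, and these levels were not tested. *JHD2* had 0 to 2 sense counts in *jhd2Δ*, against 169 to 198 in WT, and *SET1* had 33 to 46 in *set1Δ*, 35966 to 42631 under *SET1* overexpression and 40284 to 42512 under *SET1-G990E*, against 822 to 908 in WT. All 7 MATa markers were detected, at 58 to 6120 sense counts. Of the 4 MATalpha markers, *MF(ALPHA)1* and *MF(ALPHA)2* had 4 to 27, *STE3* 43 to 98 and *SAG1* 239 to 387. In the strains that overexpress *SET1* its own antisense counts were 52 to 86, or 1.45 to 2.11 per 1000 *SET1* sense counts, and the part of reads assigned to the wrong strand was not measured otherwise. Of the 889 members with own sense counts, 22 were at or below 2.11 antisense counts per 1000 own sense counts. One of these, *GLT1*, changed in a mutant.

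The distance between facing genes can be very short. The stop ends of 2 tail-to-tail pairs with a gap, 1 with a short overlap and 1 with a long overlap are shown as the plus strand of the RefSeq R64 genome (sacCer3), because they show how close a read of a gene's end lies to the opposite gene. The stretch of the member with the most antisense reads follows. Capitals mark the stop codons, and that of the minus-strand gene appears as its reverse complement.
PHM8/KRE29 (chrV:226843-226869): cagtcatcaTGActgTTAcctgatttt
POP4/SHG1 (chrII:729713-729745): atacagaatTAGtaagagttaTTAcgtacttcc
ATG29/SET6 (chrXVI:237947-237988): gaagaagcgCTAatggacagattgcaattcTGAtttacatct
AUA1/WWM1 (chrVI:115108-115274): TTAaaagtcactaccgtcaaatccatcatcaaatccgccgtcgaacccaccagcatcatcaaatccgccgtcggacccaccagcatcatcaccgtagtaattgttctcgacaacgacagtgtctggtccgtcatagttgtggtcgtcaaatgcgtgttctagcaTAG
YDR524W-C (chrIV:1489403-1489492): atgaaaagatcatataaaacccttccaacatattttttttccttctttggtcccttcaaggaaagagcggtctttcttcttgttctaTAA
In the first pair 3 bases separate the stop codon of *PHM8* from that of *KRE29*, and in the second 9 bases separate *POP4* and *SHG1*. *ATG29* and *SET6* share 24 bases, and *AUA1* and *WWM1* share 167. A read in a shared stretch counts both as sense of the neighbour and as antisense of the member, since an overlap of 1 bp was enough to be counted.

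Most members, 800 of 905, lay tail to tail with their neighbour across a gap. A further 24 overlapped tail to tail, 62 lay head to head across a gap and 11 overlapped head to head. In 4 the member lay inside its neighbour, and in 4 the neighbour lay inside the member. In all, 893 members were open reading frames (ORFs) and 12 were noncoding RNAs, and 862 had a single feature in reach and 43 had 2. There were 890 different neighbours, and 583 members had a neighbour that was itself a member, among them 282 pairs that named each other. Members are thus not independent of each other. Their antisense reads made up 31.6% of all antisense counts, and those of the 2390 features without a neighbour in reach made up 62.7%. The median member had 12.8 antisense counts per library (10.9 per kb), against 11.4 (8.38 per kb) for features without a neighbour. Of the members 621 had fewer than 20 counts and 38 had at least 100, and in 44 antisense counts were above the sense counts of the same feature.

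Relative to the neighbour, median antisense levels differed between the arrangements. Per 1000 sense counts of the neighbour, the median member had 31.7 antisense counts across a tail-to-tail gap, 53.4 across a head-to-head gap, 154 in head-to-head overlaps, 415 when it lay inside the neighbour, 561 in tail-to-tail overlaps and 2034 when the neighbour lay inside it (3 members). The antisense counts themselves had a median of 7.90 across head-to-head gaps, where the median neighbour had 178 sense counts, and of 12.8 across tail-to-tail gaps, where it had 448. Members needed a mean of at least 5 antisense counts, which sets a higher floor for the ratio beside neighbours with few sense counts. How much this minimum adds to the differences between arrangements was not tested. Members of the last 4 arrangements share a stretch with the neighbour, so these ratios hold reads counted on both sides. Across the 795 tail-to-tail gaps with neighbour sense counts, the median was lower at longer distance, at 70.1 per 1000 for gaps up to 50 bp (61 members), 42.2 for gaps over 50 and up to 100 bp (206), 29.0 for those up to 150 bp (295) and 22.8 for those up to 200 bp (233). The spread within each class was wide, with an interquartile range of 33.5 to 176 in the shortest gaps and 9.86 to 50.7 in the longest. Antisense and neighbour sense levels over members were correlated with a Spearman coefficient of 0.66 in tail-to-tail overlaps (n = 23) and 0.03 across tail-to-tail gaps (n = 795), as a description of points that share libraries. The hexamer TATATA is its own reverse complement and is a known element of yeast 3′ ends. It was found in the 100 bases after the stop codon of 46.5% of 779 neighbours across a tail-to-tail gap. Among all 5610 ORFs the share was 35.4%. The neighbours were selected for a facing stop end within 200 bp, so these 100 bases can take in the facing gene's 3′ end. A match there may belong to the facing gene, since the hexamer reads the same on either strand. How much of the difference in shares comes from this selection was not tested. Members beside a neighbour with the hexamer had a median of 28.8 antisense counts per 1000 neighbour sense counts (n = 362), and those beside one without it 37.3 (n = 417). Their interquartile ranges, 14.9 to 67.3 and 15.0 to 85.8 counts per 1000, largely overlapped.

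**Figure D1:**
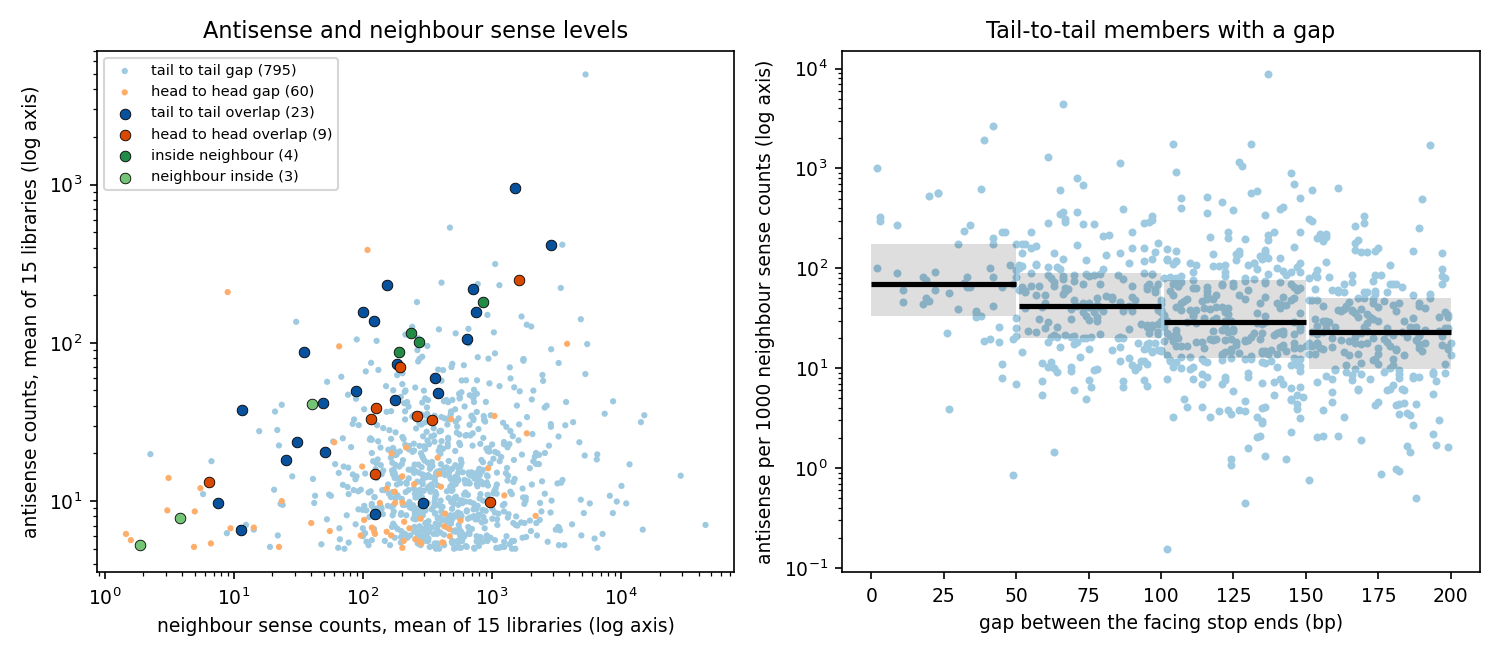
Left, mean antisense counts of each member against mean sense counts of its neighbour over 15 libraries, both on log axes, coloured by arrangement with the number of members plotted. Right, antisense counts per 1000 neighbour sense counts (log axis) against the gap in bp for the 795 tail-to-tail members with a gap, where black lines are the medians of 4 distance classes (70.1, 42.2, 29.0 and 22.8) and grey bands their interquartile ranges.

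A single small ORF of unknown function, *YDR524W-C*, held 17.2% of the members' antisense reads, and the 10 highest members held 30.2%. *YDR524W-C* had 6417, 6631 and 4637 antisense counts in *jhd2Δ*, 6144, 4643 and 4340 in *set1Δ*, 4583, 3369 and 4675 under *SET1* overexpression and 4837, 4486 and 4499 under *SET1-G990E*, against 5001, 5481 and 4776 in WT. Its neighbour *YDR524C-B*, another small ORF 105 bp away, had 4261 to 6477 sense counts. The levels of the 2 features were thus alike, and no mutant reached a 1.5-fold change in either.

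Of the other members with high antisense counts, *AUA1* averaged 958 antisense counts next to *WWM1*, which encodes a WW-domain protein and overlaps it. The snoRNA *snR43* averaged 535 beside *VMA9* (a subunit of the vacuolar ATPase), the noncoding *RUF21* averaged 417 beside *TUB2* (beta-tubulin), and *HUR1* averaged 417 over its overlap with *PMR1* (a Golgi calcium and manganese pump). *KRE29*, a subunit of the Smc5-Smc6 complex, averaged 315 antisense counts against 93.3 sense counts of its own, beside *PHM8* at a gap of 3 bp. In these 5 no comparison with WT passed both thresholds.

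*IME4* is the RNA methyltransferase gene that haploid cells cover with an antisense RNA. It had 403, 385 and 379 antisense counts in *jhd2Δ*, 271, 315 and 300 in *set1Δ*, 364, 338 and 441 under *SET1* overexpression and 396, 384 and 368 under *SET1-G990E*, against 443, 520 and 489 in WT, and only 7 to 19 sense counts. All mutant libraries lay below those of WT in raw counts, which run low in *set1Δ*. *IME4* antisense passed both thresholds in no mutant. Under *SET1-G990E* it had a log2 fold change of -0.47 ± 0.10 (SE, adjusted p = 0.00049, edgeR), short of 1.5-fold. Its head-to-head neighbour *YGL193C*, an ORF of unknown function 18 bp away, had 85 to 145 sense counts and was not called.

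The summed antisense of the members, set against the summed sense of their neighbours, overlapped between each mutant and WT. Per 1000 neighbour sense counts it was 36.3 ± 2.13 in *jhd2Δ*, 34.7 ± 2.12 in *set1Δ*, 35.5 ± 0.72 under *SET1* overexpression and 35.7 ± 1.37 under *SET1-G990E*, against 35.5 ± 0.72 in WT (SD, n = 3 each; exact two-sided permutation tests, adjusted p = 1 in each). Per 100 antisense counts of features without a neighbour in reach, members had 51.9 ± 3.29 in *jhd2Δ*, 56.2 ± 5.17 in *set1Δ*, 50.4 ± 2.11 under *SET1* overexpression and 47.3 ± 0.98 under *SET1-G990E*, against 48.6 ± 1.00 in WT. The 3 *set1Δ* libraries, at 62.1, 53.9 and 52.5, all lay above the 3 WT libraries at 49.3, 48.9 and 47.4. This gives the smallest exact p that 3 against 3 allow (p = 0.1, adjusted p = 0.3 over 4 comparisons, two-sided), and the other 3 comparisons also had an adjusted p of 0.3. Leaving out *set1Δ* replicate 1 lowered the *set1Δ* difference to 4.63. Without *YDR524W-C*, a setting chosen after seeing the data, the ratio was 44.9 in *set1Δ* and 40.6 in WT.

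**Figure D2:**
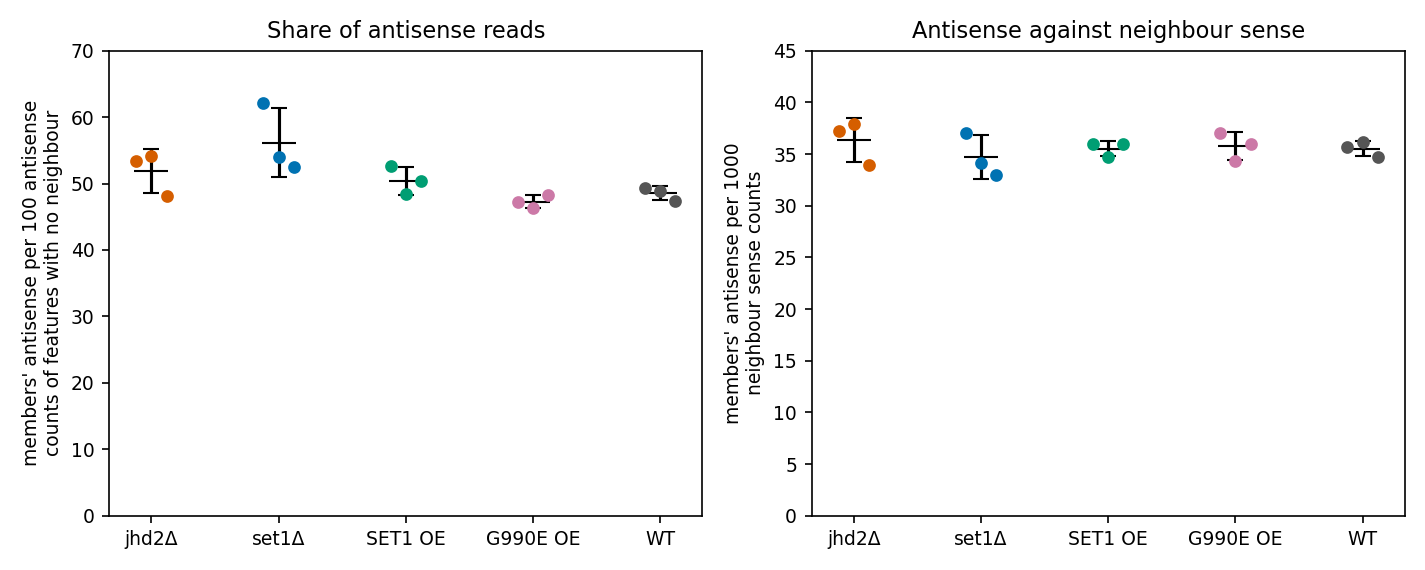
Summed antisense counts of the 905 members in each library, per 100 antisense counts of features without a neighbour in reach (left) and per 1000 sense counts of their neighbours (right), for *jhd2Δ*, *set1Δ*, *SET1* overexpression (SET1 OE), *SET1-G990E* overexpression (G990E OE) and WT. Points are libraries, and bars are the mean ± SD of 3; on the left the 3 *set1Δ* points (62.1, 53.9 and 52.5) lie above the 3 WT points (49.3, 48.9 and 47.4), and on the right the groups overlap.

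Single members were then tested in a fit over all 2640 antisense features that passed the filter on low counts, of which 725 were members and 180 members were not tested. A change was called at an adjusted p under 0.05 and at least 1.5-fold (edgeR quasi-likelihood test). In *jhd2Δ*, 15 members were higher and 14 lower than in WT, 2.07% and 1.93% of those tested, against 3.07% and 3.33% of all features. In *set1Δ*, 47 were higher and 24 lower, 6.48% and 3.31% of members, against 7.39% and 5.15% of all features. *SET1* overexpression gave 2 higher and 7 lower members (0.276% and 0.966%), against 1.17% and 2.27% of all features, and *SET1-G990E* gave 16 higher and 24 lower (2.21% and 3.31%), against 3.64% and 3.07%. The members' shares were below or near the background in each comparison with WT, and the median member moved by no more than 0.07 on the log2 scale. In all, 114 of the 725 members tested changed in at least 1 mutant. The share of all features that changed in at least 1 mutant was not computed, so this count has no background beside it. The 4 comparisons share the WT libraries, so the lists of changed members are not independent of each other.

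The balance between rises and falls depended on the scaling. With the library sizes of the sense strand, every antisense fold change moved by -0.11 in *jhd2Δ*, -0.28 in *set1Δ*, -0.02 under *SET1* overexpression and 0.06 under *SET1-G990E* (log2). The split of higher against lower members was then 8 to 24 in *jhd2Δ*, 21 to 69 in *set1Δ* and 18 to 19 under *SET1-G990E*. The *jhd2Δ* total dropped to 19 without *jhd2Δ* replicate 1, and the *SET1-G990E* total to 23 without *SET1-G990E* replicate 2. Under a stricter test of a change beyond 1.5-fold (glmTreat), only 2 members remained called in *jhd2Δ*, 17 in *set1Δ*, 1 under *SET1* overexpression and 5 under *SET1-G990E*. Calls named below that it ended are those of *MSH3*, *REV1*, *NBP35*, *GLT1*, *SHG1* and *UTP7* in *jhd2Δ*, of *PNS1*, *HRA1*, *VMR1* and *NUT1* and the rise of *NOP8* in *set1Δ*, of *MSH3*, *REV1*, *NBP35*, *GLT1*, *FYV5* and *PWR1* under *SET1* overexpression, and of *PPN1*, *SET6*, *FYV5*, *NBP35*, *SHU2*, *MOB1* and *PWR1* under *SET1-G990E*.

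Where antisense RNA changed, the sense RNA of the neighbour was often not called. The neighbour's sense RNA was called in the same direction for 7 of the 15 higher and 4 of the 14 lower members in *jhd2Δ*, for 9 of 45 and 4 of 23 in *set1Δ*, for 0 of 2 and 2 of 7 under *SET1* overexpression, and for 6 of 16 and 8 of 24 under *SET1-G990E*. A neighbour called in the opposite direction occurred once, in *set1Δ*. The median change of the neighbour beside higher and lower members was 0.47 and -0.30 (log2) in *jhd2Δ*, 0.20 and -0.10 in *set1Δ*, 0.42 and -0.53 under *SET1* overexpression, and 0.27 and -0.47 under *SET1-G990E*. Of the 865 neighbours tested on the sense strand, 46 were higher and 34 lower in *jhd2Δ*, against 6.94% and 5.27% of all 5619 sense features. The counts were 41 and 26 in *set1Δ* (5.87% and 2.71% of all), 19 and 20 under *SET1* overexpression (3.79% and 3.88%), and 47 and 33 under *SET1-G990E* (6.66% and 5.36%).

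Neighbours called higher were selected for their change, so the medians here are a description. Beside the 38 higher neighbours in *jhd2Δ* whose member was tested, the median antisense change was 0.20 and the median neighbour change 0.79 (log2). Beside the 33 higher neighbours in *set1Δ* these were 0.41 and 0.75. Across the 710 pairs tested on both strands, the Spearman coefficient of the antisense and neighbour fold changes was 0.30 in *jhd2Δ*, 0.33 in *set1Δ*, 0.26 under *SET1* overexpression and 0.32 under *SET1-G990E*, and between antisense and the gene's own sense change it lay between -0.04 and 0.05 (n = 700). In the 22 tail-to-tail overlaps the coefficients with the neighbour were 0.53, 0.59, 0.74 and 0.73. These are descriptions over pairs that share libraries and, in the overlaps, reads.

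**Figure D3:**
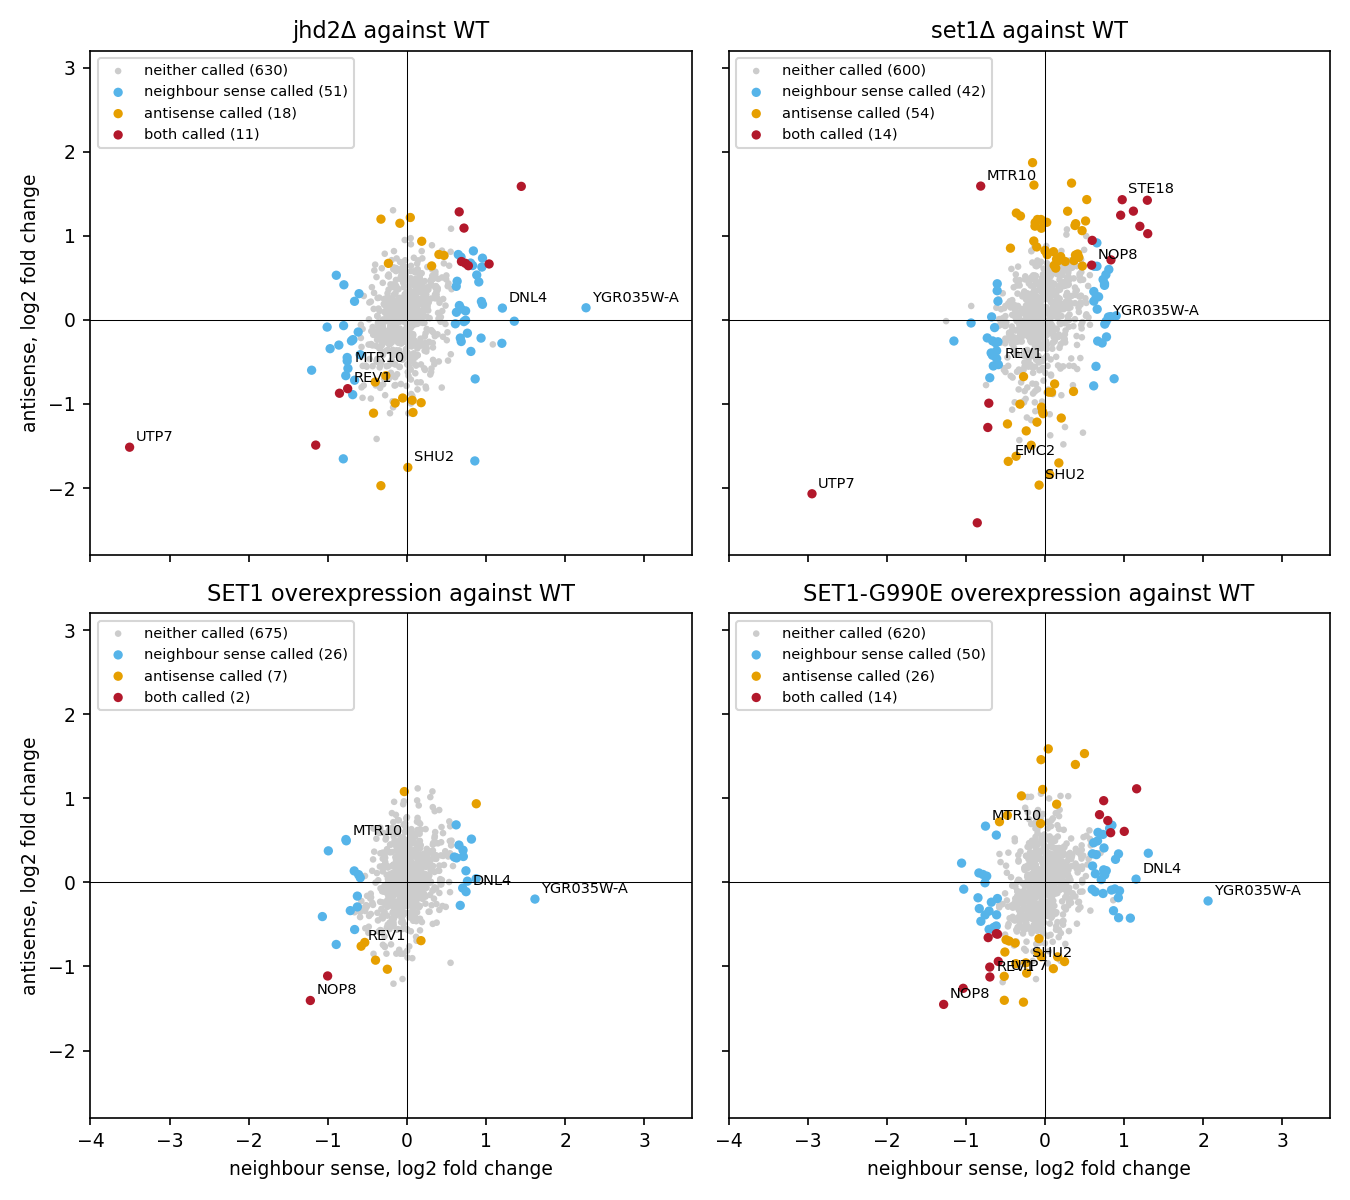
Log2 fold change of antisense RNA (vertical) against log2 fold change of the neighbour's sense RNA (horizontal) for the 710 pairs tested on both strands, in each mutant against WT. Colours show which of the 2 changes was called, with counts in the legend, and the largest neighbour change is that of *SER3* beside *UTP7*, at -3.50 in *jhd2Δ* and -2.94 in *set1Δ*.

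A direct test of antisense relative to neighbour sense, with both strands of a pair in the same fit, was made for these 710 pairs. In *jhd2Δ* antisense rose relative to the neighbour in 5 pairs and fell in 15 (0.704% and 2.11% of pairs). In *set1Δ* it rose in 18 and fell in 14 (2.54% and 1.97%), and under *SET1-G990E* it rose in 10 and fell in 12 (1.41% and 1.69%). Under *SET1* overexpression it rose in 0 pairs (0.0%) and fell in 3 (0.423%), with 65 pairs at an unadjusted p under 0.05 (edgeR). Without *set1Δ* replicate 1 or replicate 3 the *set1Δ* total was 17, and without *jhd2Δ* replicate 3 the *jhd2Δ* total was 12. The *SET1* overexpression total was 5 without its replicate 2 and 1 without its replicate 3 or WT replicate 3, and the *SET1-G990E* total was 14, 13 and 11 without its replicate 1, its replicate 2 and WT replicate 2. With sense-strand sizes for both kinds of count, the split was 4 to 19 in *jhd2Δ* and 9 to 37 in *set1Δ*.

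The pair of *EMC2*, a subunit of the endoplasmic reticulum membrane complex, and *STE18*, the gamma subunit of the pheromone-response G protein, changed on both strands in *set1Δ* and in opposite directions (chromosome X, tail to tail, 94 bp apart). *STE18* antisense had 122, 112 and 104 counts in *set1Δ*, against 70, 53 and 52 in WT. It rose by 1.43 ± 0.16 (log2, SE, adjusted p = 5.79e-13), and *EMC2* sense rose by 0.98 ± 0.07, with 863, 937 and 890 counts in *set1Δ* against 540, 494 and 542 in WT. *EMC2* antisense had 31, 19 and 19 counts in *set1Δ*, against 89, 129 and 93 in WT. It fell by 1.68 on the log2 scale (SE 0.20, adjusted p = 8.25e-12), while *STE18* sense, at 215, 261 and 202 counts against 363, 333 and 383 in WT, had a log2 change of -0.46 ± 0.11. Relative to *STE18* sense, *EMC2* antisense fell by 1.22 (adjusted p = 0.00081). The *set1Δ* and WT libraries did not overlap on either strand of either gene, and both antisense calls were kept with every library left out in turn. No other mutant changed antisense at this pair by 1.5-fold.

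*NOP8*, a nucleolar factor for the large ribosomal subunit, and *RIB4*, which encodes lumazine synthase of riboflavin synthesis, lie 42 bp apart on chromosome XV. *NOP8* antisense had 278, 225 and 263 counts in *jhd2Δ*, 314, 350 and 398 in *set1Δ*, 122, 108 and 92 under *SET1* overexpression and 116, 127 and 134 under *SET1-G990E*, against 293, 298 and 353 in WT. The libraries of both overexpression strains lay far below all others. *NOP8* antisense fell by 1.40 (log2, SE 0.13, adjusted p = 5.57e-18) under *SET1* overexpression and by 1.45 (SE 0.12, adjusted p = 9.9e-20) under *SET1-G990E*, and it rose by 0.65 ± 0.11 in *set1Δ*, a rise that was not called with sense-strand sizes. *RIB4* sense moved alike, with log2 changes of -1.22 ± 0.07 and -1.28 ± 0.07 in the overexpression strains and 0.59 ± 0.06 in *set1Δ*. *RIB4* had 589, 480 and 602 counts under *SET1* overexpression and 645, 658 and 533 under *SET1-G990E*, against 1413, 1380 and 1438 in WT. Antisense relative to *RIB4* sense did not pass the test in any mutant, with log2 differences between -0.19 and 0.06. *NOP8* sense rose in all 4 mutants, by 1.03 in *jhd2Δ*, 0.76 in *set1Δ*, 0.71 under *SET1* overexpression and 1.00 under *SET1-G990E*.

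At 2 further pairs antisense fell together with the neighbour in several mutants. *MSH3* encodes a mismatch repair protein and lies 197 bp from *KIN82*, a protein kinase gene. Its antisense counts were 30, 46 and 43 in *jhd2Δ*, 55, 62 and 47 in *set1Δ*, 42, 31 and 27 under *SET1* overexpression and 39, 28 and 42 under *SET1-G990E*, against 84, 81 and 74 in WT. All mutant libraries lay below WT in raw counts, but after scaling *set1Δ* differed from WT by only -0.06 ± 0.17. The antisense log2 changes were -0.87 ± 0.18 in *jhd2Δ*, -1.11 ± 0.19 under *SET1* overexpression and -1.26 ± 0.18 under *SET1-G990E*, and those of *KIN82* sense were -0.85 in *jhd2Δ* and -1.03 under *SET1-G990E*, with a call in the same direction under *SET1* overexpression. *REV1*, a translesion DNA synthesis gene, lies 156 bp from *PYK2*, which encodes a pyruvate kinase. *REV1* antisense had 90, 129 and 93 counts in *jhd2Δ*, 115, 95 and 88 in *set1Δ*, 131, 88 and 104 under *SET1* overexpression and 109, 79 and 114 under *SET1-G990E*, against 176, 244 and 184 in WT. It fell by 0.82, 0.76 and 1.12 (log2) in *jhd2Δ*, *SET1* overexpression and *SET1-G990E* (SE 0.14 in each, adjusted p = 1.94e-06, 1.92e-05 and 4.9e-11). In *set1Δ*, *REV1* antisense was not called, though its raw counts there also lay below every WT library. *PYK2* sense had a log2 change of -0.75 in *jhd2Δ* and -0.70 under *SET1-G990E*, and of -0.58 under *SET1* overexpression, just short of 1.5-fold.

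*SER3*, the first enzyme of serine synthesis from glycolysis, had by far the largest fall of any neighbour. Its sense counts were 1667, 1894 and 1875 in *jhd2Δ* and 2043, 2638 and 2348 in *set1Δ*, against 18388, 22730 and 21421 in WT, with log2 changes of -3.50 ± 0.09 and -2.94 ± 0.09. Antisense of *UTP7*, a gene of the small-subunit processome 176 bp beyond the *SER3* stop, had 7, 7 and 3 counts in *jhd2Δ* and 3, 4 and 2 in *set1Δ*, against 19, 25 and 10 in WT. It fell by 2.07 in *set1Δ* (log2, SE 0.47, adjusted p = 0.00049) and by 1.51 in *jhd2Δ* (SE 0.40, adjusted p = 0.0061), though the *jhd2Δ* call was lost without *jhd2Δ* replicate 3 or WT replicate 2 and with DESeq2. In *jhd2Δ* it fell by less than *SER3* sense did. Relative to *SER3* sense, *UTP7* antisense rose there by 1.97 (adjusted p = 0.015, edgeR). That call was lost without *jhd2Δ* replicate 1 or 2 or WT replicate 3. *UTP7* sense itself rose in *jhd2Δ*, by 0.72 ± 0.07. *SND2*, a gene for protein targeting to the endoplasmic reticulum, fell in *set1Δ* together with its neighbour *PER33*. It had 1, 0 and 4 antisense counts in *set1Δ*, against 8, 17 and 14 in WT (log2 change -2.41 ± 0.59, adjusted p = 0.0013, and -3.95 without *set1Δ* replicate 3), and *PER33* sense had 384, 322 and 313 counts in *set1Δ*, against 731, 729 and 667 in WT (-0.86 ± 0.12).

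**Figure D4:**
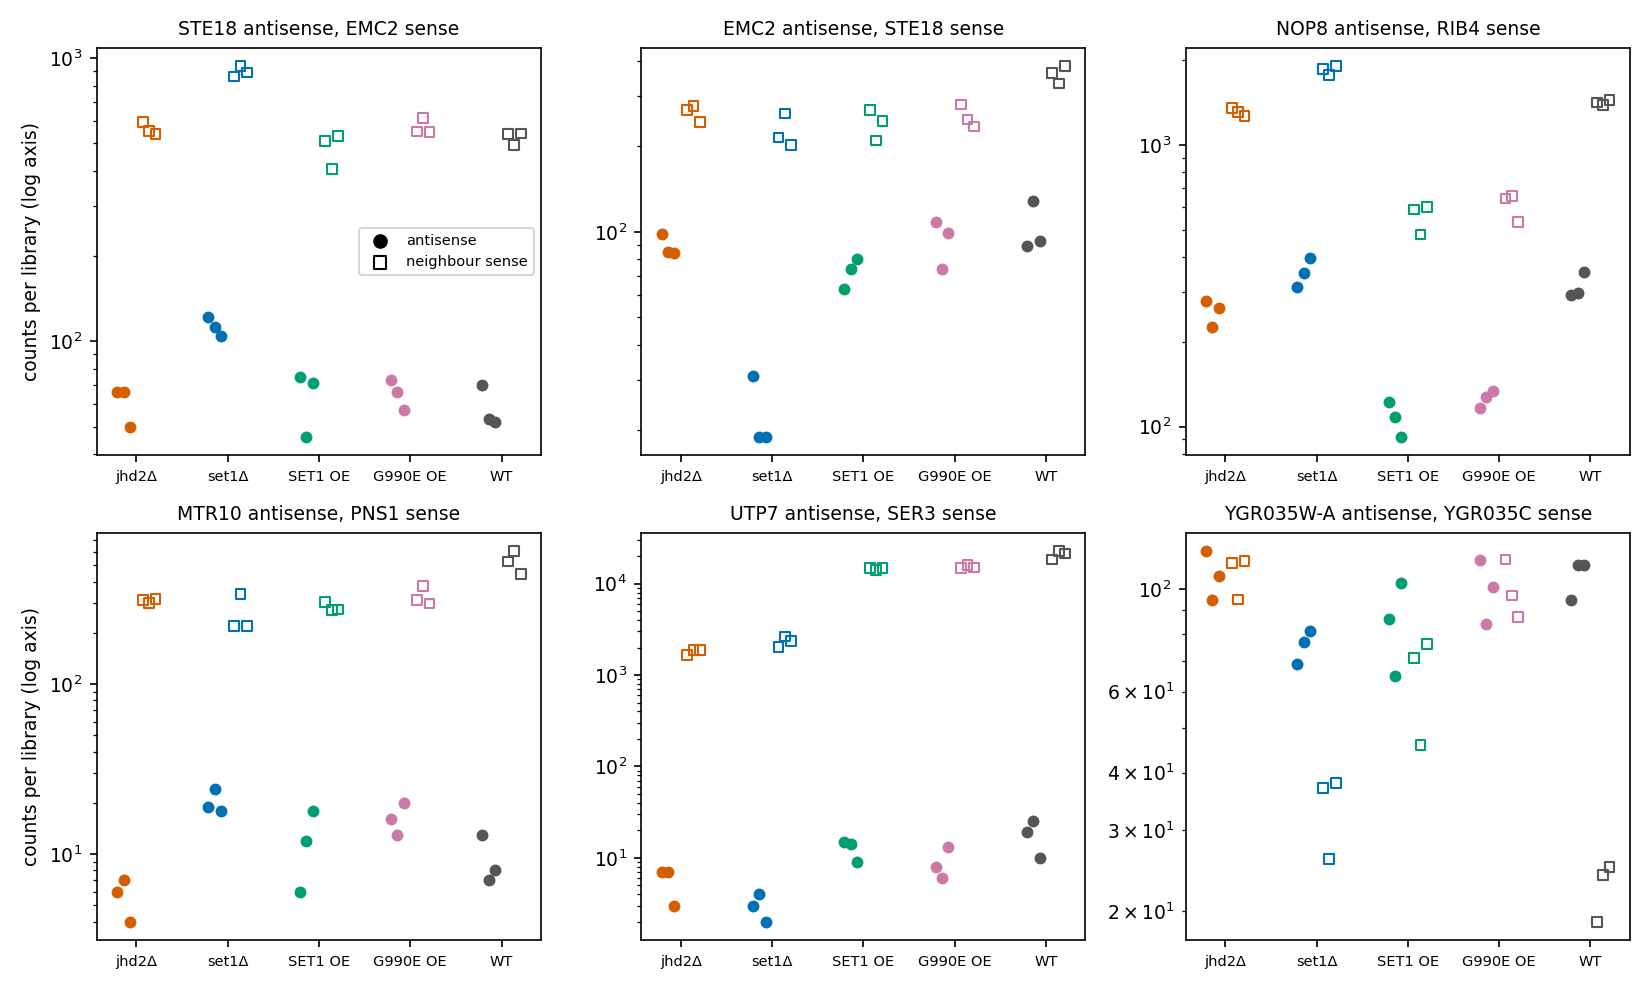
Deposited counts in each of the 15 libraries (log axes, unscaled) for antisense of the member (filled circles) and sense of its neighbour (open squares) at 6 pairs, with 3 points each for *jhd2Δ*, *set1Δ*, *SET1* overexpression (SET1 OE), *SET1-G990E* overexpression (G990E OE) and WT. *EMC2* antisense is low in *set1Δ* only (31, 19 and 19), *NOP8* antisense and *RIB4* sense are both low in the overexpression strains, and *YGR035C* sense is lowest in WT (19, 24 and 25) while *YGR035W-A* antisense overlaps between *jhd2Δ* and WT.

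In the comparisons with WT, *MTR10* was the only member with a called antisense change opposite to a called change of its neighbour. *MTR10* encodes a nuclear import receptor and faces *PNS1*, a membrane protein gene, across 181 bp on chromosome XV. *MTR10* antisense had 19, 24 and 18 counts in *set1Δ*, against 13, 7 and 8 in WT, and it rose by 1.59 ± 0.33 (log2, adjusted p = 0.00015). *PNS1* sense had 219, 338 and 219 counts in *set1Δ*, against 525, 604 and 444 in WT, and it fell by 0.81 (SE 0.14). Relative to *PNS1* sense, *MTR10* antisense rose by 2.41 ± 0.35 (adjusted p = 1.62e-05). *PNS1* sense also fell in the other 3 mutants, by 0.74 to 0.77, where *MTR10* antisense was not called. Antisense of *PNS1* itself had 53, 52 and 57 counts in *set1Δ*, against 37, 35 and 46 in WT. It rose by 0.94 ± 0.19 (adjusted p = 7.95e-05), while *MTR10* sense had a log2 change of -0.14 ± 0.08 and was not called.

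Several members changed beside a neighbour whose sense RNA was not called. *SHU2*, a homologous recombination gene of the Shu complex, lies head to head with *PET100*, an assembly factor of cytochrome c oxidase, across 194 bp. *SHU2* antisense had 9, 11 and 11 counts in *jhd2Δ*, 6, 8 and 7 in *set1Δ*, 26, 22 and 19 under *SET1* overexpression and 26, 16 and 23 under *SET1-G990E*, against 23, 49 and 44 in WT. Both deletion strains lay below every WT library. The log2 changes were -1.76 ± 0.28 (adjusted p = 5.98e-07) in *jhd2Δ*, where the call was lost with DESeq2, and -1.97 ± 0.31 (adjusted p = 4.01e-07) in *set1Δ*. *PET100* sense stayed within 136 to 202 counts in all libraries, and relative to it *SHU2* antisense fell by 1.78 in *jhd2Δ* and by 1.91 in *set1Δ*. The *SET1-G990E* change of -0.96 ± 0.24 was called, but not without *SET1-G990E* replicate 2 or WT replicate 2, nor with DESeq2.

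In *set1Δ* the members *POL4* and *PHO8* fell beside a neighbour that was not called. *POL4*, a repair DNA polymerase gene, had 4, 5 and 4 antisense counts in *set1Δ*, against 18, 20 and 22 in WT, a log2 change of -1.70 ± 0.39 (adjusted p = 0.00067). Its neighbour is *PGK1*, the glycolytic phosphoglycerate kinase, which had 26888 to 33301 sense counts in *set1Δ* and 27246 to 34402 in WT. *PHO8*, the vacuolar alkaline phosphatase gene, had 3, 7 and 2 antisense counts in *set1Δ*, against 19, 25 and 17 in WT (log2 change -1.84 ± 0.41, adjusted p = 0.00038), and its neighbour *DIG2*, an inhibitor of the pheromone transcription factor, had 102 to 128 sense counts in *set1Δ* and 119 to 136 in WT.

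Others rose in *set1Δ*. *GLT1*, the glutamate synthase gene, had 21, 23 and 30 antisense counts in *set1Δ*, against 5, 15 and 8 in WT, a log2 change of 1.87 ± 0.31 (adjusted p = 1.07e-06), and its neighbour *PAR32* was not called. Its calls in *jhd2Δ* and under *SET1* overexpression were lost when single libraries were left out and with DESeq2. *GLT1* is highly expressed, with 8074 to 11320 sense counts. Over all 15 libraries it averaged 1.92 antisense counts per 1000 own sense counts, within the range that *SET1* showed when overexpressed. This is a mean over strains and not the level in *set1Δ*, where antisense counts were higher than in WT. The part of misassigned strands in this change was not tested, and *GLT1* sense itself had a log2 change of 0.02 ± 0.07. The carnitine acetyltransferase gene *YAT1* had 27, 35 and 25 antisense counts in *set1Δ*, against 11, 17 and 13 in WT. *YAR035C-A*, 80 bp away on the other strand, has no sense counts, so its sense change could not be tested. It had 19, 29 and 30 antisense counts in *set1Δ*, against 10, 19 and 6 in WT. Antisense thus rose on both sides of this pair, by 1.56 ± 0.27 (adjusted p = 4.39e-06) and 1.63 ± 0.30 (adjusted p = 1.36e-05).

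Antisense of *NUT1*, a Mediator subunit gene beside *INO80*, had 13, 22 and 19 counts in *set1Δ*, against 12, 9 and 10 in WT, a log2 change of 1.27 ± 0.33 that was not called with DESeq2. *VMR1*, a vacuolar transporter gene beside the methionine permease gene *MUP3*, had 25, 29 and 30 in *set1Δ*, against 21, 15 and 20 in WT (1.06 ± 0.26). The noncoding RNA *HRA1* overlaps the 5′ end of *DRS2*, a lipid flippase gene, by 393 bp. Reads in that stretch are *DRS2* sense as well as *HRA1* antisense. *HRA1* antisense had 306, 294 and 286 counts in *set1Δ*, against 225, 248 and 247 in WT, and rose by 0.78 ± 0.11 (adjusted p = 1.28e-08), a call that was lost with sense-strand sizes, while *DRS2* sense had a log2 change of 0.41 ± 0.07.

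The reverse also occurred, in which a neighbour's sense RNA rose and antisense was not called. *YGR035C*, an ORF of unknown function that lies head to head with *YGR035W-A* across 142 bp, had 114, 95 and 115 sense counts in *jhd2Δ*, 37, 26 and 38 in *set1Δ*, 71, 46 and 76 under *SET1* overexpression and 116, 97 and 87 under *SET1-G990E*, against 19, 24 and 25 in WT. It rose in all 4 mutants, by 2.26, 0.77, 1.62 and 2.06 (log2). *YGR035W-A* antisense had 121, 95 and 107 counts in *jhd2Δ* and 116, 84 and 101 under *SET1-G990E*, against 95, 113 and 113 in WT, and these groups overlapped. Relative to *YGR035C* sense it fell by 2.12 in *jhd2Δ* (SE 0.21, adjusted p = 1.38e-09), by 1.81 under *SET1* overexpression (SE 0.22, adjusted p = 5.33e-07) and by 2.28 under *SET1-G990E* (SE 0.21, adjusted p = 1.98e-10).

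Sense RNA of *UTP23*, *BUD21* and *EFG1* also rose beside a member whose antisense was not called. *UTP23*, a gene of the small-subunit processome, had 445, 420 and 424 sense counts in *jhd2Δ* and 431, 497 and 396 under *SET1-G990E*, against 188, 189 and 188 in WT (log2 changes of 1.21 ± 0.09 and 1.15 ± 0.09). Antisense of *DNL4*, the DNA ligase IV gene 152 bp from it, had 111, 99 and 96 counts in *jhd2Δ* and 87, 127 and 128 under *SET1-G990E*, against 115, 86 and 103 in WT. The ratio to *UTP23* sense fell by 1.06 in *jhd2Δ* (adjusted p = 0.00019) and by 1.11 under *SET1-G990E* (adjusted p = 6.59e-05). *BUD21*, another processome gene, had 720 to 727 sense counts in *jhd2Δ*, against 309 to 334 in WT, whereas antisense of its neighbour *ATX2*, a Golgi manganese transporter gene, had 15, 12 and 9 counts in *jhd2Δ*, against 16, 13 and 19 in WT, and relative to *BUD21* it fell by 1.48 (adjusted p = 0.0019). *EFG1*, which acts in maturation of the small-subunit RNA, had 466 to 514 sense counts in *jhd2Δ*, against 244 to 283 in WT. Antisense of *SLH1* beside it was not called, but its counts of 9, 10 and 10 in *jhd2Δ* all lay below the 18, 17 and 17 in WT. Its ratio fell by 1.57 (adjusted p = 0.00096).

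*NBP35*, an iron-sulphur cluster assembly gene, fell in 3 mutants beside *NUP145*, a nuclear pore gene 196 bp away that was not called. Its antisense counts were 27, 43 and 31 in *jhd2Δ*, 45, 66 and 64 in *set1Δ*, 34, 45 and 44 under *SET1* overexpression and 40, 52 and 38 under *SET1-G990E*, against 57, 78 and 85 in WT. The *jhd2Δ* and both overexpression groups lay wholly below WT. The log2 changes were -0.99 ± 0.19 (adjusted p = 4.76e-05) in *jhd2Δ*, -0.69 ± 0.18 under *SET1* overexpression and -0.89 ± 0.18 (adjusted p = 0.00011) under *SET1-G990E*. The *SET1* overexpression call was lost without its replicate 1 or 3 or WT replicate 3, and with DESeq2. *NUP145* sense had a log2 change of 0.16 to 0.18 in these 3 mutants.

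The members that overlap their neighbour need to be read with their shared reads in mind. *ADF1* lies inside *FYV5* on the other strand, and 342 bp are shared. *FYV5* antisense had 35, 53 and 88 counts in *jhd2Δ*, 24, 38 and 47 in *set1Δ*, 29, 48 and 34 under *SET1* overexpression and 41, 64 and 47 under *SET1-G990E*, against 15, 27 and 22 in WT, and *ADF1* sense had nearly the same numbers (35, 51 and 87 in *jhd2Δ*, against 15, 27 and 22 in WT). These are the same reads counted on both features. *FYV5* was the only member called higher in all 4 mutants, by 1.59 ± 0.23 in *jhd2Δ*, 1.24 ± 0.25 in *set1Δ*, 0.94 ± 0.25 under *SET1* overexpression and 1.11 ± 0.24 under *SET1-G990E*. The *SET1* overexpression call was lost without its replicate 2 or WT replicate 1, and with DESeq2.

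*SET6*, which encodes a SET-domain protein, overlaps the autophagy gene *ATG29* by the 24 bases shown above. It was one of the members with far more antisense than sense RNA, with 301, 328 and 296 antisense counts and 5, 3 and 4 sense counts in WT. *SET6* antisense had 170, 212 and 192 counts in *jhd2Δ* and 224, 202 and 216 under *SET1-G990E*, all below WT. It fell by 0.66 under *SET1-G990E* (log2, SE 0.11, adjusted p = 4.03e-06), together with *ATG29* sense (-0.72 ± 0.13), and had a log2 change of -0.56 ± 0.11 in *jhd2Δ*, short of 1.5-fold. *SET6* sense had 19, 25 and 29 counts under *SET1-G990E* and 18, 15 and 14 in *jhd2Δ*, and it rose by 2.49 ± 0.38 and 1.95 ± 0.42. The 2 noncoding RNAs upstream of *FLO11*, *PWR1* and *ICR1*, overlap by 941 bp. *PWR1* antisense had 74, 77 and 80 counts under *SET1* overexpression and 107, 102 and 91 under *SET1-G990E*, against 140, 139 and 139 in WT (log2 changes of -0.71 ± 0.14 and -0.61 ± 0.13), and *ICR1* sense had log2 changes of -0.53 and -0.61. The *SET1-G990E* call of *PWR1* was lost without WT replicate 1 and with sense-strand sizes.

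Rises under *SET1-G990E* included *SHG1*, a gene for a component of COMPASS, the complex that holds Set1, which faces *POP4*, an RNase P subunit gene, across the 9 bases shown above. *SHG1* antisense had 17, 22 and 17 counts in *jhd2Δ*, 8, 12 and 16 in *set1Δ*, 10, 10 and 12 under *SET1* overexpression and 29, 33 and 18 under *SET1-G990E*, against 4, 9 and 12 in WT. It rose by 1.53 ± 0.32 under *SET1-G990E* (adjusted p = 0.00016) and by 1.28 ± 0.34 in *jhd2Δ* (adjusted p = 0.0069), the second of which was lost without *jhd2Δ* replicate 2 or WT replicate 1 and with DESeq2. *POP4* sense rose by 0.66 ± 0.12 in *jhd2Δ* and had a log2 change of 0.50 ± 0.12 under *SET1-G990E*, while *SHG1* sense had a log2 change of -0.03 in both. *VPS3*, a gene of vacuolar protein sorting, had 26, 28 and 34 antisense counts under *SET1-G990E*, against 10, 11 and 8 in WT (1.46 ± 0.30, adjusted p = 0.00013), and its neighbour *RSM28*, a mitochondrial ribosome gene, had a log2 change of -0.05 ± 0.07.

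Between the 2 deletion strains, 52 members were higher and 22 lower in *set1Δ* than in *jhd2Δ*, 7.17% and 3.03% of those tested, against 7.77% and 5.98% of all features. With sense-strand sizes the split turned to 28 higher and 55 lower. Between the 2 overexpression strains 1 member was higher and 1 lower in *SET1-G990E* than under *SET1* overexpression, against 0.758% and 0.152% of all features, with 78 members at an unadjusted p under 0.05 (edgeR). This count was 0 without *SET1* overexpression replicate 1 or *SET1-G990E* replicate 2, 1 without *SET1* overexpression replicate 3 or *SET1-G990E* replicate 1, 4 without *SET1-G990E* replicate 3, and 0 with DESeq2. The higher member was *PPN1*, a polyphosphatase gene beside the peroxiredoxin gene *TSA2*, with 76, 71 and 68 antisense counts under *SET1-G990E* and 28, 45 and 39 under *SET1* overexpression, against 36, 42 and 41 in WT. *TSA2* sense fell by 0.59 under *SET1* overexpression and had a log2 change of -0.58 under *SET1-G990E*. Relative to *TSA2* sense, *PPN1* antisense rose by 1.29 ± 0.19 under *SET1-G990E* against WT (adjusted p = 1.23e-05).

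Genes that form RNA 3′ ends, degrade RNA or act on chromatin were read on the sense strand. The list of 56 was written with earlier results of these data known. It includes cleavage and polyadenylation factors, the Nrd1-Nab3-Sen1 complex, the exosome and its TRAMP cofactors. It also holds the chromatin factors *SPT6*, *SPT16*, *SET2*, *RCO1*, *EAF3* and *RPD3*. All 56 were tested. In *jhd2Δ* 7 of the 56 were called higher, in *set1Δ* 2, under *SET1* overexpression 3 and under *SET1-G990E* 6. Of all sense features 6.94%, 5.87%, 3.79% and 6.66% were called higher. None of the list was lower in any mutant (0 of 56 by edgeR), against 5.27%, 2.71%, 3.88% and 5.36% of all sense features. In either direction, 35, 30, 28 and 35 of the list had an unadjusted p under 0.05 (edgeR). Such values were common on the sense strand, with 422, 438, 316 and 403 of the 865 neighbours tested. The share over all sense features was not computed. The median change was 0.21, 0.04, 0.13 and 0.21 (log2), against -0.01, 0.00, -0.01 and -0.01 over all sense features. The largest was *TRF5*, a poly(A) polymerase of TRAMP, at 1.47, 1.14, 1.03 and 1.44. *PHO5*, *PHO89*, *SET1*, *JHD2* and *URA3* have no opposite-strand feature within 200 bp and are not members.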

How the data were processed

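The deposited counts are the authors' raw numbers of sense or antisense alignments per feature, made with Novoalign 2.8.1 (submitters' processing notes) on sacCer3 and not normalized. An overlap of 1 bp was counted and overlapping features were not separated. Rows with few or extreme counts that the authors set apart were not used, nor were 60 per-library columns of FPKM and regularized log2 values or the authors' own ratio and adjusted p columns. Members and lists were chosen with earlier results of these data known.

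Library sizes were scaled by TMM, separately for the 2 strands, and features were filtered with filterByExpr (min.count 10) and fitted over all 15 libraries with edgeR 4.0.16 (R 4.3.3), with Benjamini-Hochberg adjustment over all 2640 antisense or 5619 sense features; alternatives used limma 3.58.1 (prior count 2) and DESeq2 1.42.0. Antisense relative to neighbour sense was an interaction of strand and strain with each library as a block. Summed ratios were compared by exact permutation (scipy 1.17.1). The neighbour of a member is the opposite-strand feature of largest overlap, otherwise of smallest gap. Members were named by a rule: the highest counts overall and per arrangement, the largest called changes in each comparison and relation to the neighbour, and the rows around the minimum. Same-numbered antisense libraries did not deviate together, so the main fits have no pairing. On the sense strand the *set1Δ* and WT deviations of every number were correlated above 0.1, and with replicate number as a block 68 instead of 67 neighbours were called in *set1Δ*. Sequences, matched for 892 members by name, are from the RefSeq R64 genome.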

Additional observations from a re-analysis of the deposited data

Results flagged for a closer look

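Differences between the 2 deletion strains were tested directly in the edgeR fit, and the members with the largest called differences in each direction are given here. Log2 differences of *set1Δ* minus *jhd2Δ* were 2.29 for *RPF2* antisense, 2.17 for *MTR10* and 1.87 for *VMR1*, and -2.02 for *SND2*, -1.70 for *GLG2* and -1.62 for *VOA1*. *RPF2*, a ribosome assembly gene, had 9, 10 and 9 antisense counts in *set1Δ*, against 1, 5 and 1 in *jhd2Δ*, and its neighbour *MTD1*, a gene of folate metabolism, had 2722, 3023 and 2673 sense counts in *set1Δ*, against 982, 1338 and 1170 in *jhd2Δ*. *GLG2*, which encodes a glycogenin, had 4, 1 and 4 in *set1Δ*, against 12, 14 and 12 in *jhd2Δ*. *VOA1*, an assembly factor gene of the vacuolar ATPase, had 3, 4 and 3 in *set1Δ*, against 19, 14 and 7 in *jhd2Δ*. None of these 3 was called against WT in either strain. Without *jhd2Δ* replicate 2 the difference was 3.41 for *RPF2*, and without *set1Δ* replicate 3 it was -3.56 for *SND2*. The calls of *RPF2*, *GLG2*, *VOA1* and *SND2* were lost with DESeq2. That of *GLG2* was lost without *set1Δ* replicate 2, that of *VOA1* without *jhd2Δ* replicate 1 or *set1Δ* replicate 3, and that of *SND2* without *jhd2Δ* replicate 2 or *set1Δ* replicate 1 or 2.

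Between *SET1-G990E* and *SET1* overexpression, antisense of *PPN1* differed by 0.67 (log2) and that of *MOB1*, a mitotic exit gene, by -1.08. *MOB1* had 21, 11 and 17 antisense counts under *SET1-G990E* and 34, 24 and 28 under *SET1* overexpression. Neither call held with DESeq2. That of *PPN1* was also lost with no filter, without *SET1* overexpression replicate 1 or 3 and without any of the 3 *SET1-G990E* replicates (0.49 to 0.87 over all left-out libraries), and that of *MOB1* without *SET1* overexpression replicate 1 or *SET1-G990E* replicate 2.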

How the results depend on the processing

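Counts are given in the order *jhd2Δ*, *set1Δ*, *SET1* overexpression and *SET1-G990E*, each against WT, then *set1Δ* against *jhd2Δ* and last the 2 overexpression strains. A stricter threshold (adjusted p under 0.01 and 2-fold) gave 8, 31, 3, 9, 24 and 0 called members, the test against 1.5-fold (glmTreat) 2, 17, 1, 5, 14 and 0, overlapping members alone 3, 5, 2, 4, 3 and 0, and a reach of 500 bp 77, 165, 32, 84, 175 and 10. The overlap set holds 43 members and the 500 bp set 1839, against 905 in the main set. These sets only change which features count as members, so the shares of all features stay those given above. For the other settings those shares are not given. DESeq2 gave 13 in *jhd2Δ*, 33 in *set1Δ*, 19 under *SET1-G990E*, 33 for *set1Δ* against *jhd2Δ* and 0 between the overexpression strains. A filter of at least 50 counts in 3 libraries, which tests fewer features, gave 11, 15, 14 and 19 in the first 4 of these. Between the overexpression strains, sense-strand sizes gave 4 and no filter 1. Leaving out single libraries gave 19 to 28, 57 to 71, 8 to 12, 23 to 45, 53 to 76 and 0 to 4 called members. For antisense relative to neighbour sense it gave 12 to 21, 17 to 42, 1 to 5 and 11 to 23 pairs, the stricter threshold gave 10, 13, 1 and 8, and limma gave 1 under *SET1* overexpression.

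With the replicate number as a block, which the antisense libraries gave no sign of sharing (correlations of -0.04 to 0.07), 29, 71, 12, 39, 75 and 2 members were called. Relative to neighbour sense, limma with the block called 20, 35, 1 and 13 pairs, and 80, 68, 40 and 81 neighbours were called on the sense strand.

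The difference from WT in members' antisense per 100 antisense counts of other features was 2.19 to 5.20, 4.63 to 9.43, 0.79 to 2.90 and -1.87 to -0.81 without single libraries, and 5.79 under *SET1-G990E* with a reach of 500 bp. Per 1000 neighbour sense counts these differences were 0.05 to 2.04, -1.98 to 0.0799, -0.40 to 0.42 and -0.40 to 0.96. This small ratio difference changed sign in *jhd2Δ* with a minimum mean of 10 counts (-0.14), a reach of 500 bp (-0.32), without the 10 highest members (-0.35) and without *YDR524W-C* (-0.59). It also did so in *set1Δ* for overlaps alone (0.0821) and without *set1Δ* replicate 3 (0.0799), under *SET1* overexpression with a minimum of 10 (-0.47) or 500 bp (-0.11) and without its replicate 1 (-0.20), its replicate 3 (-0.20) or WT replicate 3 (-0.40), and under *SET1-G990E* with a minimum of 10 (-0.33) and without its replicate 1 (-0.40) or WT replicate 3 (-0.17). The cause of these shifts was not tested. Most members had fewer than 20 counts, which limits their precision.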
